A study of Homo sapiens with 4 samples.

Results

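Integrin subunits, tensins and the main proteins of focal adhesions were followed at the RNA level in MDA-MB-231 cells after knockdown of AURKA, the mitotic kinase Aurora A. The 40 genes were taken by name from the 20140 genes in the deposited tables: 18 integrin alpha subunits, 8 integrin beta subunits, 3 tensins (TNS1, TNS3 and TNS4) and 11 other focal adhesion genes. These 11 were the talins TLN1 and TLN2, VCL, ZYX, PXN, PTK2, ILK, FERMT1, FERMT2, PARVA and LIMS1. MDA-MB-231 is an established human triple-negative breast cancer cell line with a mesenchymal appearance. RNA was sequenced from 2 libraries labelled AURKA KD (titled shA) and 2 labelled control (titled shC), all grown in L-15 medium with serum. The series text calls the control mock-transfected, and the sources used here do not say whether it carried a hairpin. The hairpin sequence, the number of hairpins and the time after knockdown are not stated either. The design text calls the 2 samples of each group biological replicates. Nothing says that they came from separate days, so p-values here measure only the spread between these samples.

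Integrins are receptors made of 1 alpha and 1 beta subunit that bind the extracellular matrix outside the cell. Inside the cell, talins and kindlins bind the beta tail and switch the receptor to its active form. Adaptors such as paxillin, vinculin, zyxin and the complex of ILK, PINCH (LIMS1) and parvin then link it to actin and to focal adhesion kinase. Tensins bind beta tails and organise longer-lived adhesions, and TNS4 (also called CTEN) lacks the actin-binding part of the other tensins. Epithelial cells also use the pair of ITGA6 and ITGB4, which binds laminin and connects to keratin filaments in hemidesmosomes.

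The unit of the tables was taken to be FPKM, fragment counts normalised to transcript length and library depth, which allows levels to be compared between genes. AURKA itself stood at 124 and 99.1 FPKM in the control libraries and at 22.3 and 23.7 in the knockdown libraries, a log2 difference of -2.22 (SE 0.15), so it matched the labels. The files hold no read totals. Rough estimates from the smallest steps of the values were 17300000 and 24100000 fragments for the control libraries and 21100000 and 27500000 for the knockdown libraries. Between 11739 and 12177 genes reached 1 FPKM in a library, and the 40 genes together held between 0.196% and 0.223% of the summed FPKM. All 6 markers listed for MDA-MB-231 (VIM, CD44, MSN, ANXA1, CAV1 and AXL) reached 1 FPKM in every library. Their sum was 3527 and 3534 FPKM in control against 3203 and 3190 in knockdown. VIM (2068 and 1937 against 1814 and 1701) and AXL (292 and 318 against 227 and 231) were lower in knockdown. In CD44, MSN, ANXA1 and CAV1 the groups overlapped. Of 8 luminal and epithelial markers 5 reached 1 FPKM (EPCAM, FOXA1, GATA3, KRT8 and KRT18). The list summed to 512 and 612 FPKM in control and 582 and 589 in knockdown. Most of that sum was KRT18 (265 to 346 FPKM) and KRT8 (237 to 259). ESR1 (0.059 to 0.271 FPKM), PGR (0.012 to 0.023) and CDH1 (0.008 to 0.046) stayed near 0 in every library. Of 8 leukocyte markers only ITGB2 reached 1 FPKM. CD3E was at 0 in the 4 libraries, CSF1R lay between 0.391 and 0.691 FPKM and CD14 between 0.175 and 0.355, and the list summed to 4.36 and 3.06 FPKM in control and 3.20 and 3.05 in knockdown. The sample is bulk RNA, so fewer cells of a kind and less RNA per cell cannot be told apart.

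Without any other term, limma on log2(FPKM + 1) called 0% of the 12137 genes tested at an adjusted p of 0.05, AURKA included (adjusted p = 0.0822). It called none of the 26 members tested, of which 4 had an unadjusted p under 0.05 (777 of all genes did). Tables of the same replicate number shared their row order, while the 2 numbers differed in row order and in the loci of 1707 shared transcripts. Each number, with 1 library of each group, was therefore taken to have been quantified apart from the other, which no label states. The labels do not say what the number marks, and it may also stand for separate cultures or days. These cannot be told apart, and the term called the run here takes out all of them. A fit with this run as a term called 194 genes higher (1.6% of those tested) and 233 lower (1.92%). Among the members it called 3 higher, TNS4, ITGB4 and ITGB3, and 1 lower, ITGA2B, which reached 1 FPKM in the control libraries only. The words rose and fell below refer to this fit, and adjusted p-values are from limma with Benjamini-Hochberg adjustment over all genes tested. The fit was an alternative to the planned one, which has no run term. On simulated data it called more unchanged genes than its threshold allows, so its adjusted p-values may be too small. With 2 libraries against 2, an exact permutation test of a single gene could not go below p = 0.333. The log2 difference of the median member was 0.037, against 0.012 for the median of all genes tested, and 15 of the 26 members lay above 0. In 8 members both knockdown libraries lay above both control libraries, where 19.4% of all genes tested did so, and in 6 both lay below, where 16.6% did.

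**Figure D1:**
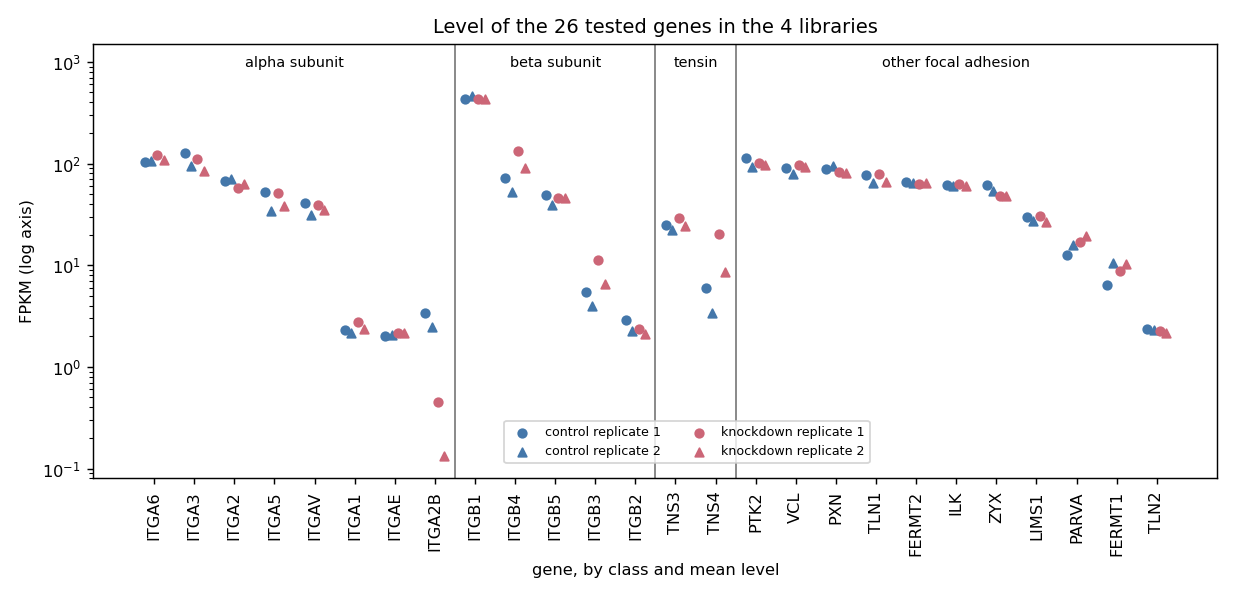
FPKM on a log axis for each of the 26 genes tested, by class, in the 2 control and 2 AURKA knockdown libraries, 1 point per library. The levels run from ITGB1, at 427 FPKM or more, to ITGA2B, at 0.133 in knockdown replicate 2, and the 4 points of most members lie close together.

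The integrin repertoire of these cells was narrow. ITGA6, ITGA3, ITGA2, ITGA5 and ITGAV together made up 97.5% to 98.4% of the summed alpha-subunit FPKM in the 4 libraries. Of the 18 alpha subunits, 8 passed the filter of 1 FPKM in at least 2 libraries. ITGA6, the laminin-binding partner of ITGB1 and ITGB4, was measured at 103 and 107 FPKM in control and at 120 and 108 in knockdown. Its knockdown libraries lay just above the control libraries, and the log2 difference of 0.12 had a 95% interval from -0.17 to 0.42. ITGA3, another laminin receptor, was measured at 128 and 94.3 FPKM in control and at 110 and 85.2 in knockdown. Its level was lower in replicate 2 of both groups, which overlapped, and neither fit called it (log2 difference -0.18, adjusted p = 0.225 with the run as a term). ITGA2, a collagen receptor, stood at 67.7 and 71.2 FPKM in control and at 57.4 and 62.9 in knockdown. Both knockdown values were the lower ones, yet the log2 difference of -0.21 passed neither test (adjusted p = 0.847, and 0.191 with the run as a term). ITGA5, the fibronectin receptor subunit, had 52.7 and 34.1 FPKM in control and 51.4 and 38.5 in knockdown, and ITGAV, which pairs with ITGB3 and ITGB5, had 41.4 and 31.4 against 39.4 and 35.1. For both, the spread between replicates exceeded the difference between groups. At the low end, ITGA1 lay between 2.14 and 2.74 FPKM and ITGAE between 2.02 and 2.17, with log2 differences of 0.13 and 0.05. The 10 alpha subunits that were not tested stayed under 1 FPKM in every library. ITGA10, a collagen receptor of cartilage, reached 0.960 FPKM, ITGA7, a laminin receptor of muscle, 0.766, ITGAX of myeloid cells 0.400 and ITGA9 0.167, each in control replicate 1. The other 6 (ITGA11, ITGAL, ITGA4, ITGAM, ITGAD and ITGA8) lay under 0.1 FPKM in all 4 libraries, and ITGAL and ITGAM are among the alpha subunits of leukocytes. Of the 40 members 10 share a locus in the files with another gene, among them ITGA6 with PDK1, ITGA1 with PELO, ITGAE with GSG2, and ILK with TAF10. Strand-specific counting is not stated, and whether reads of 1 gene were counted for another at its locus was not tested.

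ITGA6 is made in 2 forms that differ in the cytoplasmic tail, called alpha6A and alpha6B, depending on whether an exon near the 3′ end is kept. The exon is shown because it is a difference between the leading ITGA6 transcripts. Their first and last exons also differ (416 and 2140 bases in ENST00000264107), so the shares of these transcripts do not measure this exon alone. In the GENCODE 29 transcript ENST00000264107 it is exon 25 of 26, at bases 3349 to 3478 of the transcript (130 bases), and its first 108 bases are coding and end in a stop codon, given in capitals.
ITGA6 exon 25, coding bases: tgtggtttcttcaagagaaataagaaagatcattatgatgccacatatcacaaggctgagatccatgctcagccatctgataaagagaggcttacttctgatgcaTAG
The transcript with this exon was measured at 71.2 and 65.7 FPKM in control and at 83.7 and 69.3 in knockdown, which is 69.1%, 61.6%, 69.5% and 64.0% of the ITGA6 sum in that order. The leading transcript without it, ENST00000409080, held 27.4% and 29.1% in control and 26.1% and 28.4% in knockdown. The shares differed more between the replicates than between the groups, and the exon-containing transcript led in every library.

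ITGA2B, which pairs with ITGB3 as the platelet fibrinogen receptor, was the only alpha subunit called. It was measured at 3.36 and 2.49 FPKM in control and at 0.454 and 0.133 in knockdown, and it passed the filter through the control libraries alone. A gene let in this way is lower in knockdown by selection, so its p-values are no separate support for a fall. It fell by 1.60 on the log2(FPKM + 1) scale (SE 0.17, adjusted p = 0.00852 with the run as a term; SE 0.26, adjusted p = 0.365 without it). Nearly all of its control signal came from 1 transcript, ENST00000588098, with 2.89 and 2.36 FPKM in control, listed at 0 in both knockdown libraries. That transcript made up 86.3% and 95.0% of the ITGA2B sum in the control libraries, and it is not in GENCODE 29. Without it the gene stood at 0.461 and 0.125 FPKM in control and at 0.454 and 0.133 in knockdown, a log2 difference of 0.0015. The difference in the gene sum thus came from a single transcript. Of the platelet markers, GP9 was at 0 in every library, PPBP reached at most 0.071 FPKM and GP1BB at most 0.443. GP1BA stood at 2.92 and 1.16 FPKM in control and at 2.43 and 1.56 in knockdown. PF4 and GP6 reached 1.25 and 1.02 FPKM, each in control replicate 1. The markers other than ITGA2B summed to 5.57 and 2.29 FPKM in control and 3.93 and 2.93 in knockdown, so their groups overlapped. ITGA2B lies on chromosome 17, 42449547 to 42466873 (GRCh37, as in the files).

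**Figure D2:**
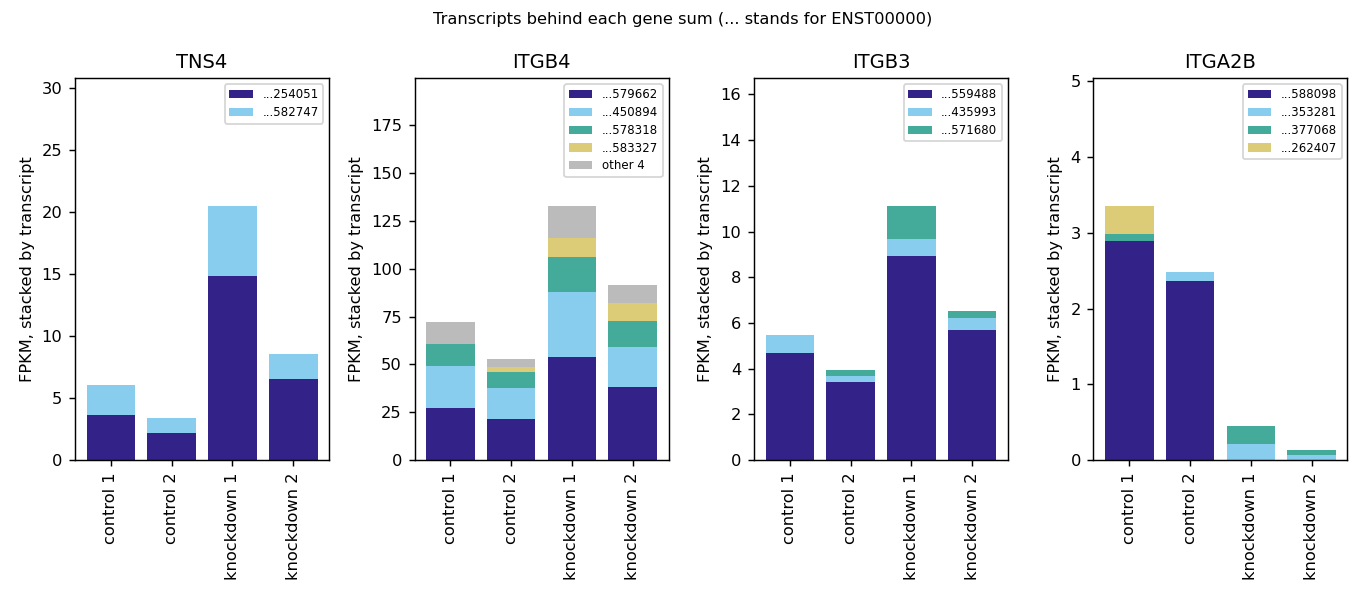
FPKM of the transcripts of TNS4, ITGB4, ITGB3 and ITGA2B in each of the 4 libraries, stacked to the gene sum. In TNS4, ITGB4 and ITGB3 the leading transcript is higher in the knockdown library of each replicate number, while in ITGA2B a single transcript carries the control signal and is at 0 in both knockdown libraries.

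Among the beta subunits, ITGB1 was the most abundant member in all 4 libraries. This shared partner of most alpha subunits was measured at 431 and 459 FPKM in control and at 430 and 427 in knockdown. Its log2 difference was -0.05, with a 95% interval from -0.34 to 0.23. It accounted for 76.7% and 82.2% of the summed beta-subunit FPKM in control and for 68.9% and 74.4% in knockdown. ITGB5, a vitronectin receptor subunit, overlapped between groups with 48.8 and 39.3 FPKM against 46.3 and 45.9 (log2 difference 0.07). ITGB2, a leukocyte beta subunit, was low at 2.89 and 2.23 FPKM in control and 2.38 and 2.09 in knockdown.

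ITGB4, the hemidesmosome beta subunit with a long cytoplasmic tail, was measured at 72.2 and 52.8 FPKM in control and at 132.9 and 91.2 in knockdown. Both knockdown libraries lay above both control libraries. The mean went from 62.5 ± 13.7 (SD, n = 2) to 112 ± 29.5 (SD, n = 2), a 1.79-fold higher level that was 1.84-fold in replicate 1 and 1.73-fold in replicate 2. ITGB4 rose by 0.82 on the log2 scale (SE 0.079, adjusted p = 0.00677 with the run as a term; SE 0.24, adjusted p = 0.580 without it). The ratio of ITGB4 FPKM to that of its partner ITGA6 was 0.700 and 0.495 in control and 1.10 and 0.842 in knockdown, so the groups did not overlap in it. ITGB4 took 12.8% and 9.46% of the beta-subunit sum in control and 21.3% and 15.9% in knockdown. Its leading transcript, ENST00000579662 (5554 bases), had 27.2 and 21.6 FPKM in control and 54.1 and 38.3 in knockdown. The other transcripts summed to 45.0 and 31.1 FPKM against 78.7 and 52.9, so the difference was not limited to 1 of them. Its locus in the files, chromosome 17, 73717407 to 73761792 (GRCh37), also holds GALK1, a galactose kinase gene. GALK1 stood at 14.8 and 9.92 FPKM in control and at 13.8 and 9.59 in knockdown (log2 difference -0.07).

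ITGB3, the partner of ITGAV in the vitronectin receptor, was measured at 5.49 and 3.96 FPKM in control and at 11.1 and 6.53 in knockdown. The groups did not overlap, and the means were 4.73 ± 1.08 and 8.83 ± 3.25 (SD, n = 2 each), a 1.87-fold difference that was 2.03-fold in replicate 1 and 1.65-fold in replicate 2. ITGB3 rose by 0.75 on the log2(FPKM + 1) scale (SE 0.14, adjusted p = 0.0374 with the run as a term; SE 0.29, adjusted p = 0.757 without it). Without knockdown replicate 1 the difference was 0.41. ITGAV itself was level between the groups, so the ITGB3 to ITGAV ratio was 0.133 and 0.126 in control and 0.283 and 0.186 in knockdown. The corresponding ratio of ITGB5 to ITGAV, 1.18 and 1.25 against 1.18 and 1.31, overlapped. The leading ITGB3 transcript, ENST00000559488 (3995 bases), had 4.70 and 3.44 FPKM in control and 8.94 and 5.68 in knockdown, from roughly 330 fragments in each control library and 750 and 620 in the knockdown libraries by the depth estimates. The ITGB3 locus (chromosome 17, 45331211 to 45518678, GRCh37) also holds EFCAB13, at 4.29 and 3.99 FPKM in control and 5.22 and 4.59 in knockdown (adjusted p = 0.431 with the run as a term). The 3 other beta subunits did not pass the filter: ITGB7 ranged from 0.157 to 1.16 FPKM, ITGB8 from 0.300 to 0.686 and ITGB6 from 0.026 to 0.076.

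**Figure D3:**
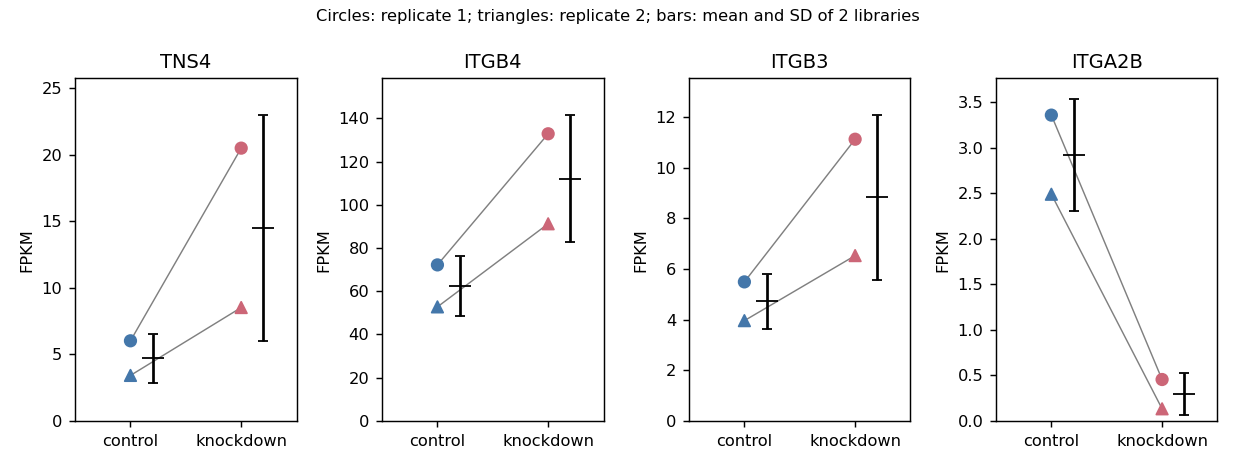
FPKM of TNS4, ITGB4, ITGB3 and ITGA2B in each library, with lines joining control and knockdown of the same replicate number and bars for the mean and SD of each group. All lines of TNS4, ITGB4 and ITGB3 go up and both lines of ITGA2B go down, and the replicate 1 library is the higher one in each group.

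TNS4 had the largest difference among the members after ITGA2B. This tensin of epithelial cells was measured at 6.02 and 3.42 FPKM in control and at 20.5 and 8.52 in knockdown. Both knockdown libraries were higher than both control libraries, and replicate 1 was the higher sample within each group. The means were 4.72 ± 1.84 and 14.5 ± 8.47 (SD, n = 2 each), a 3.07-fold difference that was 3.40-fold in replicate 1 and 2.49-fold in replicate 2. TNS4 rose by 1.36 on the log2(FPKM + 1) scale (SE 0.15, adjusted p = 0.0101 with the run as a term; SE 0.44, adjusted p = 0.641 without it). Without knockdown replicate 1 the difference was 0.77. The leading transcript ENST00000254051 (4067 bases) had 3.64 and 2.21 FPKM in control and 14.8 and 6.52 in knockdown, roughly 260 and 220 against 1300 and 730 fragments. A short transcript, ENST00000582747 (599 bases), had 2.38 and 1.21 FPKM in control and 5.67 and 2.00 in knockdown, so its groups overlapped. TNS4 lies on chromosome 17, 38632079 to 38657849 (GRCh37), with no other gene at its locus in the files.

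TNS3, the more abundant tensin, was measured at 25.1 and 22.1 FPKM in control and at 29.3 and 24.5 in knockdown. The groups overlapped and the log2 difference of 0.18 was not called (adjusted p = 0.297 with the run as a term). The ratio of TNS4 to TNS3 was 0.240 and 0.155 in control and 0.700 and 0.348 in knockdown. TNS1 reached 1 FPKM in 1 library and was not tested, with 0.984 and 1.52 FPKM in control and 0.498 and 0.616 in knockdown. With no filter on low values its log2 difference was -0.52 (adjusted p = 0.637, and 0.384 with the run as a term). With no filter, the fit with the run as a term called no gene, and the 4 members called above had an adjusted p of 0.384 as well.

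The word GAGACCT, which an earlier analysis of these tables picked out in 3′UTRs of genes lower after knockdown, was looked up in the members, on the transcript strand of GENCODE 29. It was held by 12.4% of the 11691 tested genes searched, by 93 of 228 genes that fell (40.8%) and by 12 of 187 that rose (6.42%). Since the word was chosen from genes that fell in these tables, those shares follow from the choice. Among the 26 tested members 4 held it (15.4%): TNS4, PARVA, FERMT1 and ITGB5. The sites are shown because TNS4, which rose, is among the holders. Each window has 29 bases with the word in capitals.
TNS4 (ENST00000254051), 3′UTR bases 383 to 389 of 1760: agtctgagcaaGAGACCTgcagcccctgt
PARVA (ENST00000649199), 3′UTR bases 1518 to 1524 of 7431: atcaactgactGAGACCTtgggctaaata
FERMT1 (ENST00000217289), 3′UTR bases 1514 to 1520 of 2328: ctctgagaagtGAGACCTcagcaattccg
ITGB5 (ENST00000296181), 3′UTR bases 1542 to 1548 of 1675: atgatgaaacaGAGACCTggtaacttggt
The PARVA transcript shown has no value in the tables, while the other 3 do. All 4 genes had a log2 difference above 0, of which only that of TNS4 passed the test, whereas the median over all tested genes with the word was -0.061. A match is a description of the letters and not evidence that a regulator acts there.

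None of the 11 talin, kindlin and adaptor genes was called by either fit, and all 11 passed the filter. TLN1, a talin, stood at 77.2 and 64.3 FPKM in control and at 78.4 and 65.9 in knockdown. Its relative TLN2 lay between 2.16 and 2.38 FPKM. FERMT2, a kindlin, ranged from 63.1 to 66.3 FPKM over the 4 libraries. FERMT1, the epithelial kindlin, stood at 6.38 and 10.6 FPKM in control and at 8.79 and 10.3 in knockdown, so the controls differed more from each other than the groups did. In the complex that ILK organises, ILK ranged from 60.6 to 62.8 FPKM and LIMS1 from 26.4 to 30.2, with log2 differences of 0.01 and -0.01. PARVA, the parvin of that complex, was measured at 12.5 and 15.7 FPKM in control and at 16.8 and 19.4 in knockdown. Its knockdown libraries both lay higher, with a log2 difference of 0.35 (SE 0.17) that was not called (adjusted p = 0.111 with the run as a term).

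VCL, the tension-bearing linker vinculin, stood at 90.3 and 78.4 FPKM in control and at 95.9 and 91.8 in knockdown (log2 difference 0.16). PXN, the scaffold paxillin, stood at 87.8 and 95.0 FPKM in control and at 83.2 and 80.8 in knockdown (log2 difference -0.15). ZYX, the LIM protein zyxin of mature adhesions, was measured at 62.0 and 54.1 FPKM in control and at 48.3 and 48.0 in knockdown. In ZYX and PXN both knockdown libraries lay below the controls and in VCL both lay above. None of the 3 was called, and for ZYX the log2 difference was -0.26 (SE 0.13, adjusted p = 0.807, and 0.148 with the run as a term). PTK2, focal adhesion kinase, overlapped with 114 and 92.0 FPKM against 101 and 96.4.

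**Figure D4:**
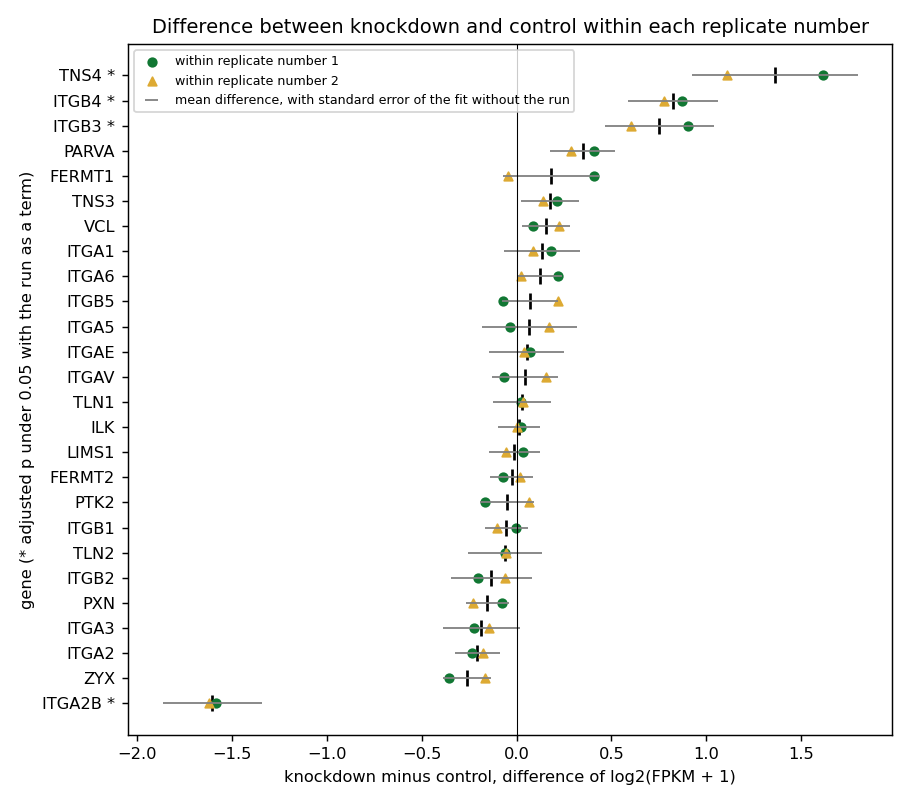
Difference of log2(FPKM + 1), knockdown minus control, of the 26 members tested, with the value in each replicate number, the mean of both and its standard error without the run term. TNS4, ITGB4 and ITGB3 stand to the right of the other members in both replicates and ITGA2B stands far to the left, while the 11 talin, kindlin and adaptor genes lie between ZYX at -0.26 and PARVA at 0.35.

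Genes that work beside the members were read from 4 wider lists. In the fit that holds the run, 1.6% of all genes tested were called higher and 1.92% lower. Of 48 adaptor and signalling genes tested, 1 rose and 2 fell in that fit. ARHGEF2, a microtubule-bound activator of RhoA, was measured at 65.7 and 73.6 FPKM in control and at 105 and 96.4 in knockdown (log2 difference 0.53, adjusted p = 0.0354). ASAP1, a GTPase-activating protein for Arf at adhesions, stood at 29.4 and 26.6 FPKM in control and at 19.9 and 17.4 in knockdown (-0.56 on the log2 scale, adjusted p = 0.0301). The adaptor CRK stood at 41.1 and 45.3 FPKM against 29.7 and 33.7 (log2 difference -0.44, adjusted p = 0.0442). In these 3 genes the groups did not overlap, and 19.4% of all genes tested lay wholly higher and 16.6% wholly lower in knockdown. Of 43 actin linkers tested, 1 rose and 1 fell. CSRP1, a LIM protein of actin bundles, was measured at 99.8 and 102.5 FPKM in control and at 60.2 and 59.1 in knockdown, a log2 difference of -0.75 (adjusted p = 0.0083 with the run as a term and 0.299 without it). AJUBA, a LIM protein of adhesions and cell junctions, stood at 35.4 and 38.6 FPKM against 46.7 and 52.3 (log2 difference 0.41, adjusted p = 0.0483).

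Among 24 tested genes for extracellular ligands, 4 rose and none fell with the run as a term, beside 1.6% and 1.92% of all genes tested. FN1, fibronectin, the ligand of the ITGA5 and ITGAV receptors, was measured at 39.5 and 29.9 FPKM in control and at 61.7 and 51.6 in knockdown (log2 difference 0.70, adjusted p = 0.0127). COL6A1, a collagen VI chain, stood at 28.0 and 16.4 FPKM against 42.4 and 29.6 (log2 difference 0.70, adjusted p = 0.0188). LAMB1, a laminin beta chain, stood at 9.15 and 11.2 FPKM against 15.6 and 16.8 (log2 difference 0.62, adjusted p = 0.0333). EDIL3, a secreted ligand of ITGAV receptors, stood at 41.1 and 26.3 FPKM against 59.6 and 40.8, so its groups overlapped although each knockdown library was above its own control (log2 difference 0.57, adjusted p = 0.0221). The laminin chains LAMB3 and LAMA3 did not pass the test: LAMB3 had 244 and 229 FPKM in control and 213 and 187 in knockdown, and LAMA3 had 3.16 and 1.20 against 1.30 and 0.46. None of 20 membrane partners of integrins was called. The median log2 difference was 0.011 for the adaptors, 0.040 for the actin linkers, 0.094 for the ligands and 0.105 for the membrane partners, beside 0.012 for all genes tested.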

How the data were processed

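Each library has its own table, deposited by the authors, of 81493 transcripts and their values. No unit stands in the header, and the authors' values were taken as FPKM because they have decimals and library totals that differ. Per the submitters' processing notes, bcl2fastq 2.19, HTSeq 0.8.0 and the build hg38 were used. Which program computed FPKM is not given in the sources at hand, and the loci in the files are those of GRCh37.

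Transcripts were summed to genes by gene ID, and 12137 genes that reached 1 FPKM in 2 or more libraries were tested with limma-trend (limma 3.58.1, R 4.3.3) on log2(FPKM + 1), a scale that makes the change of low genes look smaller. Two-sided p-values were adjusted by Benjamini-Hochberg over all genes tested, with a threshold of 0.05. Both fits were tested on simulated data, where the fit with the replicate block called more unchanged genes than its threshold allows, so its adjusted p-values may be too small. The planned fit has no replicate term. A fit that takes the replicate number as a block was an alternative and is printed beside it. Row order and loci differ between the numbers, from which a separate quantification run of each was inferred. Same-numbered libraries deviated together from their group means (correlation 0.645 across 12137 genes, which are not independent). With the block, p-values set the mean difference against a moderated spread. That spread combines the gene's own disagreement between the 2 runs with a trend fitted over all genes tested.

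Named members are those past the threshold in either fit, the 10 with the largest differences, the 3 most abundant per class, those at the edge of the filter and, as ranges, the rest. The members and lists were chosen with earlier results of these data known. Alternatives changed the pseudocount, filter, scaling and libraries. Sequences are from GENCODE 29 transcripts. The 3′UTR word was searched in all protein-coding transcripts of a gene, matched by gene ID, and the site in the longest 3′UTR holding it is shown. Protein and promoter sequences were not used here.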

Additional observations from a re-analysis of the deposited data

How the results depend on the processing

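Without the replicate block, 0 genes were called. Under the alternatives the count was 427 with the block, 1 with a pseudocount of 5, 1 with a filter on a mean of 5 FPKM, 2 with median-of-ratios scaling, 1 with libraries rescaled to 1 total after removal of mitochondrial genes, 6 to 14 with 1 library left out, and 1183 with the block and median-of-ratios scaling. Alternatives added after seeing the data, all with the block, gave 381 with the filter on a mean of 5, 289 with a pseudocount of 0.1, 800 with upper-quartile scaling and 0 with no filter. Of the members, 0 were called without the block and 4 with it, 4 with the block and median-of-ratios scaling, a pseudocount of 0.1 or upper-quartile scaling, and 3 with the block and the filter on a mean of 5, where ITGA2B is not tested. Of the wider lists, 0 genes were called, 9 with the block and 1 without control replicate 2. The median log2 difference of the members, 0.037, was -0.0011 with no filter, 0.057 with rescaling to 1 total, and -0.055 to 0.099 with 1 library left out.

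TNS4, ITGB4 and ITGB3 kept their direction under every alternative run on the gene sums. Their groups did not overlap, so leaving out 1 library could not reverse the sign. The block does not change the estimate in this balanced design. ITGA2B kept its direction where it was tested. It failed the filter without control replicate 1, without control replicate 2 and with a filter on a mean of 5. Leaving out either control library thus gives no value for it. Members near 0 changed sign. With 1 library left out, the log2 difference ranged from -0.41 to 0.036 for ITGA3, -0.24 to 0.37 for ITGA5, -0.15 to 0.24 for ITGAV, -0.27 to 0.0010 for ITGB2, -0.080 to 0.22 for ITGB5, -0.14 to 0.51 for FERMT1, -0.055 to 0.0029 for FERMT2, -0.20 to 0.10 for PTK2, -0.10 to 0.16 for TLN1, -0.0089 to 0.038 for ILK and -0.10 to 0.083 for LIMS1. With rescaling to 1 total, FERMT2 (0.0090) and LIMS1 (0.024) changed sign. ITGA2B without its leading transcript, an alternative added after seeing the data, gave 0.0015. Fits with 1 library left out assume that the lone sample varies like the others. The cause of these changes was not tested. Depth is known only as a rough estimate, so no counting interval is given.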

Other observations

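The 4 called members all lie on chromosome 17, a pattern noticed after the calls were seen. Of these, ITGA2B passed the filter through the control libraries alone. The chromosome holds 6 of the 26 tested members, and the other 2, ITGA3 and ITGAE, were not called. Of 733 tested genes on chromosome 17, 18 rose and 18 fell in the fit that holds the run (4.91%, against 3.52% of all genes tested). Their median log2 difference was 0.016, beside 0.012 for all genes tested.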
